A study of Mus musculus with 3 samples.

Results

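Ligand-gated ion channel receptors were examined in hippocampal CA1 of C57BL/6J mice (young males of this inbred strain) 6 h after contextual fear conditioning. The members were chosen by name: the mouse genes whose symbols mark them as subunits of ionotropic glutamate, GABA-A, glycine, nicotinic acetylcholine, serotonin type 3 or P2X receptors, represented by array probe sets that the platform annotation ties to 1 gene. This gave 37 genes, carried by 47 probe sets, among 8251 named genes in all. Grina, which has a receptor-like symbol but encodes no subunit, and the Gabarap genes were left out by the rule, and not every subunit of these families was analysed here. All 3 arrays form 1 group, labelled C + S for context and shock: each animal was placed for 2 min in an unfamiliar chamber, received a 1 s, 0.5 mA foot shock, went through this 3 times and went back to its home cage 1 min after the last shock. The labels give no untrained animals, no genetic change, and no statement of whether an array held RNA of 1 mouse or of several. The spread between arrays may therefore be technical as well as biological, and no value below is an effect of training.

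Ligand-gated channels turn the binding of a transmitter into an ion current within the receptor itself. Ionotropic glutamate receptors are assembled from AMPA, kainate or NMDA subunits and carry fast excitation; at CA1 synapses AMPA receptors carry most of the current at rest, and NMDA receptors admit the calcium that starts synaptic plasticity. GABA-A, glycine, nicotinic and serotonin type 3 receptors share a ring-shaped, pentameric plan and differ in the ion they pass, whereas P2X receptors are trimers opened by ATP.

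The deposited value of a probe set is a signal intensity on a linear scale, and values below are deposited signals given in the order array 1, array 2, array 3. The arrays had median signals of 176, 177 and 171. A probe set is called measured, and its gene above threshold, when the mean over the arrays exceeded 175, the median of all deposited values, which stands in for a detection call. A lower signal is no evidence that an RNA was missing. Each gene was taken at its brightest probe set. By this rule 16 of the 37 receptor genes (43.2%) were above threshold, beside 59.1% of all named genes. Of the 37 genes, 13 were above it on every array and 18 on none. Moving the threshold to the 25th percentile of all values gave 31 genes, and moving it to the 75th gave 7. Just inside the threshold were Chrne at a mean of 190.0, Grin2b at 219.7 and Glra1 at 235. Just outside were Grin2a at 156 and Gabrg3 at 135. Without array 2 the count was 14, since Grin2b and Chrne passed through that array alone, and without array 3 it was 17.

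The tissue label was set beside marker lists, each gene at its brightest probe set, with 59.1% of all named genes above threshold. All 3 CA1 pyramidal markers with a probe set, Wfs1, Pou3f1 and Dcn, were above threshold on every array. Markers of neighbouring and other cell types passed too: 7 of 9 for interneurons, 5 of 5 for astrocytes and 4 of 6 for choroid plexus and ependyma. So did 4 of 4 thalamus markers, 4 of 6 of CA3 and CA2, and 2 of 4 of dentate granule neurons. Of 5 excitatory neuron markers 3 passed, and Camk2a was under threshold at 44.9, 35.4 and 38.1. These counts do not set CA1 apart from its neighbours. Of 5 skeletal muscle markers 1 passed, Acta1, and the summed signal of these 5 was 844, 905 and 757. In such bulk tissue, fewer cells of a type and less RNA per cell cannot be told apart.

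**Figure D1:**
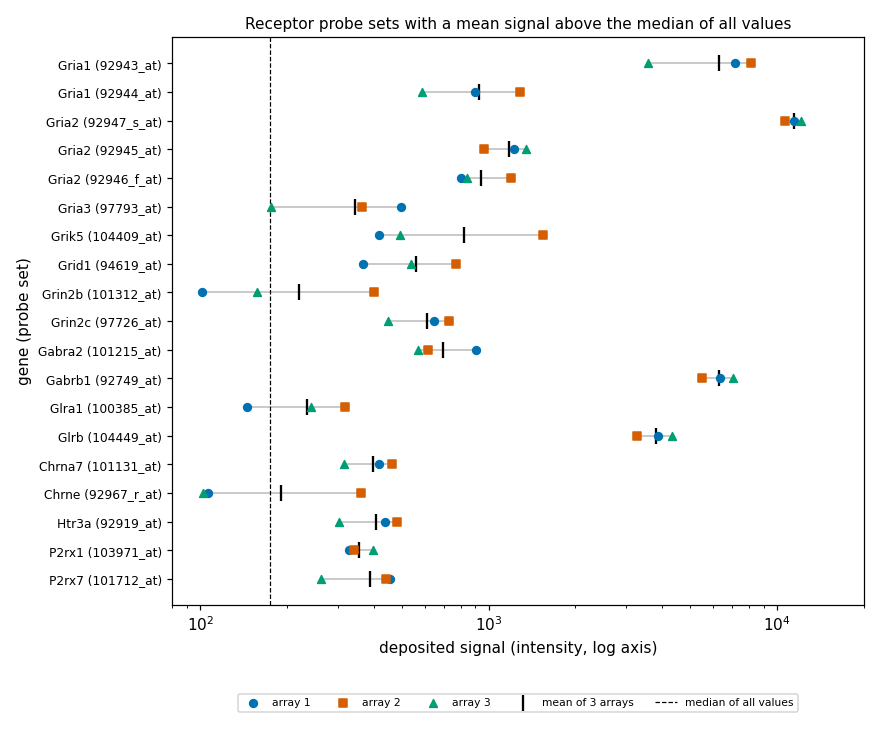
Deposited signal (log axis) of the 19 measured receptor probe sets on each of the 3 arrays, with the mean as a black bar and the median of all values as a dashed line. Gria2, Gabrb1 and Glrb have closely spaced arrays, whereas Grin2b and Chrne are right of the line on array 2 only.

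AMPA receptor subunits were above threshold for 3 of 4 genes. Gria2, whose subunit makes AMPA receptors nearly impermeable to calcium, gave 11481, 10721 and 12136.5 at its brightest probe set, a mean of 11446 ± 708 (SD, n = 3 arrays). These 3 values lie within 1.17-fold of each other after scaling. Gria1, the subunit most closely tied to activity-dependent insertion at the synapse, gave 7192, 8130.1 and 3565. Array 3 was low and the other 2 were close together, a span of 2.20-fold. Gria3, which pairs with the Gria2 subunit in many hippocampal receptors, gave 497, 363 and 176, also lowest on array 3 and spanning 2.74-fold. Gria4, a subunit prominent in young tissue and in interneurons, stayed under threshold on every array, between 36.7 and 51.8.

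Whether such a spread exceeds what probe sets of the same level show was tested for all 6218 measured probe sets, by setting each variance of log2 signal against an intensity-dependent prior in limma. At a Benjamini-Hochberg adjusted p under 0.05 the test called 0.0161% of them, which is 1 probe set, and 0 of the 19 measured receptor probe sets. At an unadjusted p under 0.05 it called 3 receptor probe sets, the brightest ones of Gria1, Gria3 and Grik5, beside 5.21% of all. The other Gria1 probe set, described below, missed that cut at an unadjusted p of 0.0597 in limma. In this limma test the adjusted p was 0.834 for Gria1, 0.899 for Gria3 and 0.992 for Gria2. A p above the threshold does not show that the arrays were alike.

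The remaining AMPA probe sets bear on how far 1 set of probes can stand for a gene. The second probe set of Gria1 gave 898, 1286 and 586, with the same array highest and the same array lowest as the brightest one. Its span was 2.12-fold, so both Gria1 probe sets passed 2-fold. The 4 probe sets of Gria2 did not all share an order. The brightest one, with the values given above, had the s suffix and not the plain one. The one with the plain suffix gave 1225, 962 and 1346, in the same order as the brightest but with a mean of 1178. The one with the f suffix, a marker of probes that can match a gene family, gave 801, 1195 and 839. The brightest and the plain one were lowest on array 2, and the one with the f suffix was highest there. The one left, of the r suffix for probes picked under relaxed rules, gave 5.3, 11.9 and 8.2, far under threshold on each array. The statement that Gria2 was above threshold thus holds for 3 of its 4 probe sets.

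Among kainate and delta subunits, Grik5 and Grid1 were above threshold on every array. Grik5, which encodes a high-affinity kainate subunit that forms channels only with other kainate subunits, gave 416, 1550.4 and 493. Array 2 stood apart, at a log2 deviation of 1.75 from the mean of the other arrays, while arrays 1 and 3 were close. Its log2 range was 1.89, or 3.71-fold, with an adjusted p of 0.559 in limma. Without array 3 the adjusted p fell to 0.012, and without array 2 the range was 0.29. Over the 12 alternatives for this probe set the adjusted p lay between 0.012 and 0.985. The second Grik5 probe set, under threshold on average, gave 88.5, 185 and 192 and did not set array 2 apart from array 3.

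Grid1 encodes a delta subunit, a synaptic organiser that binds cerebellins and has no conventional glutamate-gated current. It gave 368, 771 and 537, a span of 2.09-fold with array 1 lowest and array 2 highest, at an adjusted p of 0.968 in limma. The channel-forming kainate subunits Grik1 and Grik2 were under threshold on every array. Grik1 lay between 28.2 and 113, and Grik2 gave 26.4, 173 and 78.3 at one probe set and 34.5, 48.1 and 62.3 at the other, lowest on array 1 in both and highest on a different array in each. Array 1 was also the lowest for Grik1 and for both Grik5 probe sets.

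NMDA receptor subunits of the Grin2 group, which bind glutamate and set how long the current lasts, were above threshold for 2 of 4 genes. Grin2c, best known from cerebellar granule cells and also found in astrocytes, gave 648, 731 and 449. All 3 values were above threshold and spanned 1.57-fold, with an adjusted p of 0.988 in limma. Grin2b, a subunit of slow-decaying forebrain receptors, gave 101, 400.2 and 158, so that its mean of 219.7 ± 159 passed by 1 array. Its span of 3.95-fold was the widest of the 19 measured receptor probe sets, with an adjusted p of 0.955. Grin2a, its partner in the adult forebrain, lay between 50.2 and 261 and passed the threshold on array 2 alone, and Grin2d lay between 24.3 and 104. All 4 Grin2 genes were highest on array 2. For Grin2a, Grin2b and Grin2d the arrays fell on both sides of the threshold or under it, so the order rests on weak signals.

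**Figure D2:**
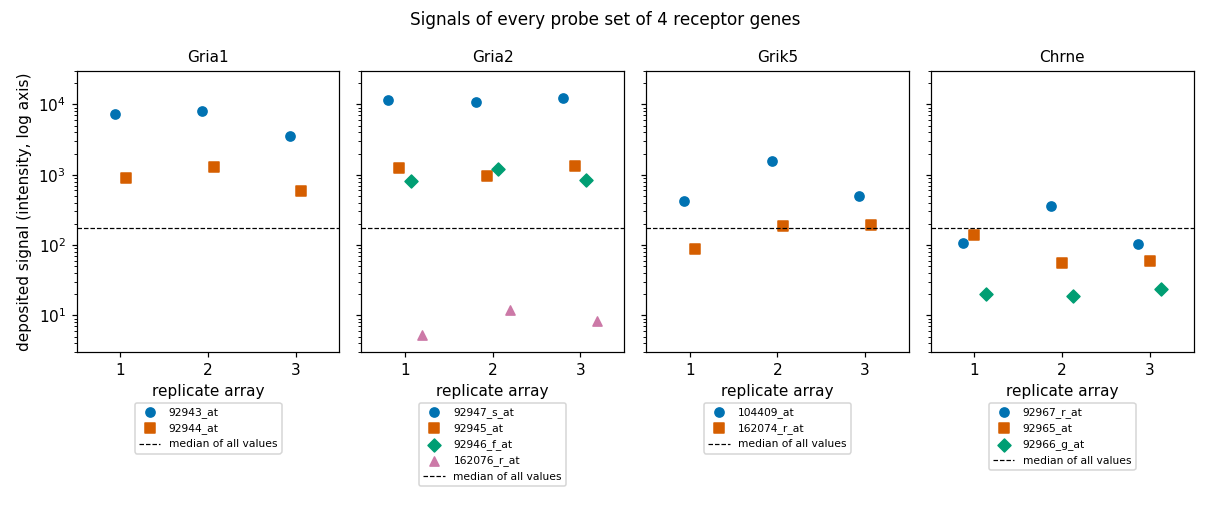
Deposited signal (log axis) of every probe set of Gria1, Gria2, Grik5 and Chrne on the 3 arrays, with the median of all values dashed. The 2 Gria1 probe sets share their order, whereas those of Gria2, Grik5 and Chrne do not.

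GABA-A receptor subunits were above threshold for 2 of 8 genes, and rho subunits, which form the related receptors of the retina, for 0 of 2. Gabrb1, a beta subunit needed for assembly, gave 6332, 5523 and 7068, a mean of 6308 ± 773. Gabra2, an alpha subunit found at the axon initial segment of pyramidal cells among other sites, gave 902, 617 and 570.1, a mean of 696 ± 179.8. Gabrb1 was lowest on array 2 and spanned 1.32-fold, and Gabra2 was highest on array 1 and spanned 1.54-fold. Both had an adjusted p of 0.988 in limma.

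The other 8 GABA-A and rho genes had means from 22.1 to 135. Gabrg3, a gamma subunit, was the nearest to the threshold, between 123 and 153. Gabrb2, a beta subunit, lay between 48.6 and 188 and passed the threshold on array 2 alone. Gabrg1, known from glia and limbic neurons, lay between 63.3 and 97.8. The delta subunit gene Gabrd, typical of dentate granule cells where it serves tonic inhibition, lay between 27.4 and 75.3, and Gabra3 had a mean of 23.4. Gabra6, a subunit of cerebellar granule cells, gave 121, 123 and 100.2 at one probe set and 4.4, 12.0 and 18.2 at the other. The rho genes lay between 8.3 and 41.6 for Gabrr1 and between 11.8 and 106.5 for Gabrr2.

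Both glycine receptor genes were above threshold. Glrb, the beta subunit that anchors the receptor to gephyrin, gave 3873, 3283 and 4316, a mean of 3824 ± 518. Its arrays spanned 1.36-fold with array 2 lowest, the same order as for Gabrb1. Glra1, the alpha subunit of spinal cord and brainstem receptors, gave 145, 317 and 242.5 and was above threshold on 2 of 3 arrays. It spanned 2.17-fold, at an adjusted p of 0.988 in limma.

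**Figure D3:**
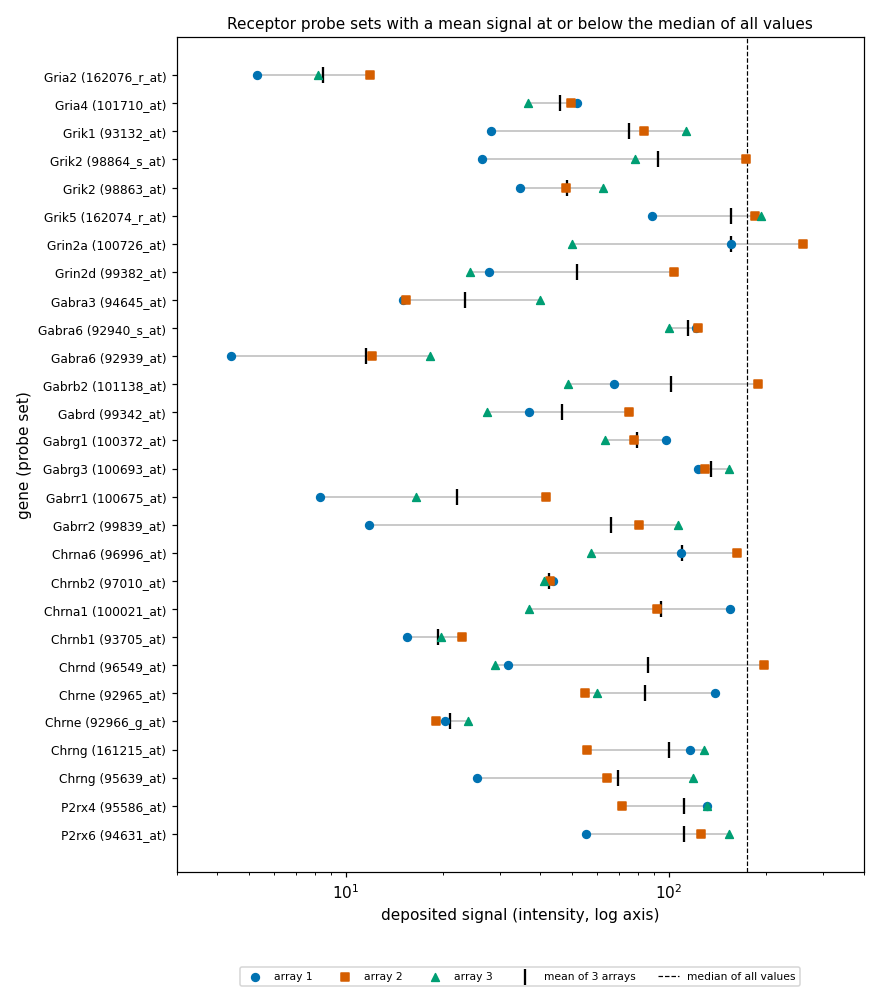
Deposited signal (log axis) of the 28 receptor probe sets with a mean under the median of all values, drawn as for the measured ones. Most points lie left of the dashed line on every array, and those to its right come from Grik5, Grin2a, Gabrb2 and Chrnd.

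Among nicotinic receptor genes, the neuronal subunit Chrna7 was above threshold on every array. It encodes the alpha7 subunit, which forms calcium-permeable receptors by itself and is carried by hippocampal interneurons and pyramidal cells. It gave 416, 461 and 315, a mean of 398 ± 74.8, and spanned 1.41-fold with an adjusted p of 0.988 in limma. Chrnb2, the beta subunit of most high-affinity nicotine sites in brain, stayed between 41.1 and 43.7, and Chrna6, a subunit of midbrain dopamine neurons, between 57.2 and 162. Htr3a, the serotonin type 3 subunit that in cortex and hippocampus marks a class of interneurons, gave 436, 481 and 303. All of its arrays were above threshold, and array 3 was the lowest, as for Chrna7.

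The 5 subunit genes of the muscle-type nicotinic receptor, which serves the neuromuscular junction, were under threshold with 1 exception that rests on 1 probe set. Chrna1 lay between 36.9 and 154, and Chrnb1 between 15.4 and 22.9. Chrng, the fetal gamma subunit gene, gave 117, 55.8 and 129 at one probe set and 25.5, 64.2 and 119 at the other. Chrnd, the delta subunit gene, lay between 28.9 and 197, above threshold on array 2 alone. Chrne, the epsilon subunit of the adult junction, gave 107, 361 and 102 at a probe set of the r suffix. That probe set was the brightest of 3 and put the gene above threshold at a mean of 190.0 ± 148. The other Chrne probe sets gave 138, 55.1 and 59.7, and 20.2, 19 and 23.9, under threshold on every array and not highest on array 2. The Chrne call is thus carried by 1 array and 1 probe set of 3.

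The sequence before the gene start differed between members as well, and is shown for 2 receptor genes above threshold on every array and 2 muscle-type genes under it. The windows are the 250 bases before the start in RefSeq on GRCm38.p6, in the direction of the gene, with each CG pair in capitals. Glrb lies at chr3:80913661-80913910 (minus strand), Chrna7 at chr7:63212527-63212776 (minus strand), Chrna1 at chr2:73580339-73580588 (minus strand) and Chrng at chr1:87205561-87205810 (plus strand).
Glrb: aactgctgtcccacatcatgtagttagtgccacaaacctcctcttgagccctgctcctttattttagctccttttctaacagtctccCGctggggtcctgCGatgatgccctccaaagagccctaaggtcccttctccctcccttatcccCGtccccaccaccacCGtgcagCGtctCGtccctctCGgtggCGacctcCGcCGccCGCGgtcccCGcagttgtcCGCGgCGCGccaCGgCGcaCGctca
Chrna7: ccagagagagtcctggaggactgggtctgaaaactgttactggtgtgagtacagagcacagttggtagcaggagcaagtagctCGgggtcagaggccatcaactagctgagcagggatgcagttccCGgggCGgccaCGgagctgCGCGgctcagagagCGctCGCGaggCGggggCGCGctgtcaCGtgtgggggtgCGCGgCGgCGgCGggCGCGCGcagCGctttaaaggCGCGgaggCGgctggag
Chrna1: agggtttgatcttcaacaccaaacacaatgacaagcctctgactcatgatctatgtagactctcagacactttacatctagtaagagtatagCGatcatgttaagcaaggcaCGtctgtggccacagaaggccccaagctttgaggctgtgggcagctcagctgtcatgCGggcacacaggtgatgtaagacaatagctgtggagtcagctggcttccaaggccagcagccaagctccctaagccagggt
Chrng: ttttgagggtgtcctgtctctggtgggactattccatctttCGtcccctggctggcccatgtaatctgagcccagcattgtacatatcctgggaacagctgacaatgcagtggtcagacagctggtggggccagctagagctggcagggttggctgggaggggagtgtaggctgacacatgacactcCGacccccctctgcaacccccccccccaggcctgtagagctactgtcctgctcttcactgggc
Glrb held 20 CG pairs and Chrna7 held 25, against 3 in Chrna1 and 2 in Chrng. Chrnb1, another muscle-type gene under threshold, held 14, so that the group was not uniform. Of the 37 genes, 26 had a window used here. The median number of CG pairs was 16.5 over the 10 genes above threshold, whose lowest was Chrne with 1, and 7.5 over the 16 under it, whose highest was Grik2 with 20. Over the whole array the median was 17 for the 3940 named genes above threshold with a window and 9 for the 2636 below. The motif CANNTG, which reads the same on both strands, occurred 3 times each in Chrna1, Chrng and Chrnb1, 1 time in Chrne, 2 times in Chrna7 and 1 time in Glrb. Receptor genes of other families held as many or more, with 3 in Gabrr1 and 4 in the first window of P2rx7. The motif was in 6 of the 10 windows above threshold and 11 of the 16 under it. It occurred in 56.5% of the named genes above threshold, 62.0% of those below and 66.0% of all 27025 windows of this length. The motif GGGCGG, searched on both strands, was in 6 of the 10 windows above threshold and 5 of the 16 under it, beside 62.3% of the named genes above threshold, 43.7% of those below and 32.9% of all windows. These are matches of letters, with no binding measured.

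P2X receptors, which open on ATP, were above threshold for 2 of 4 genes. P2rx7, a subunit of microglia and other immune cells that needs much ATP, gave 454, 442 and 262, a mean of 386 ± 108. P2rx1, best known from smooth muscle and platelets, gave 327, 340.4 and 399, a mean of 355 ± 38.2. P2rx7 was lowest on array 3 and spanned 1.68-fold, and P2rx1 was highest on array 3 and spanned 1.26-fold. Their adjusted p was 0.988 and 0.991 in limma. P2rx4, a subunit of neurons and microglia, lay between 71.5 and 131, and P2rx6 between 55.4 and 154, both under threshold on every array.

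**Figure D4:**
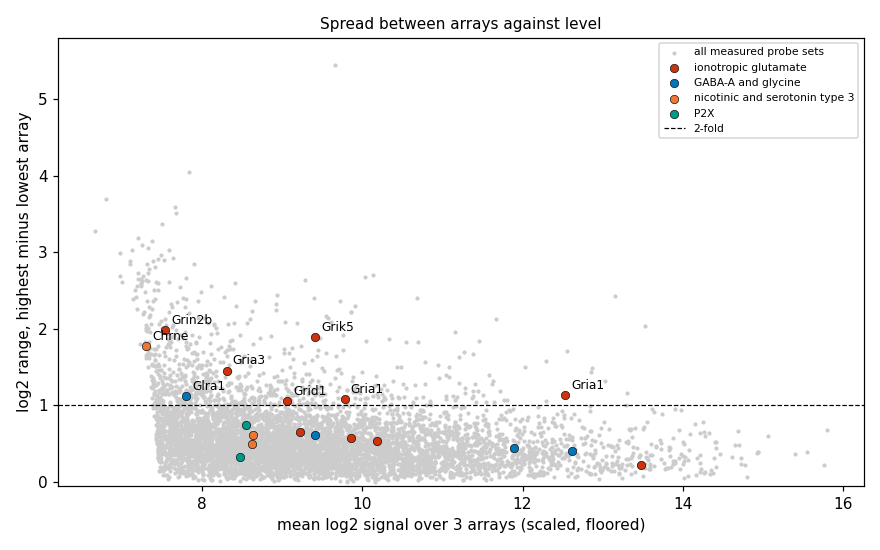
Log2 range between the 3 arrays against mean log2 signal for all 6218 measured probe sets (grey) and the 19 receptor probe sets (coloured by receptor class), with 2-fold dashed. The 8 receptor probe sets over the line are named.

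Across the 19 measured receptor probe sets the median log2 range was 0.65, beside 0.48 over all 6218 measured probe sets. A range over 2-fold was found for 8 of the 19, beside 12.1% of all. The 8 were both probe sets of Gria1 and those of Gria3, Grik5, Grid1, Grin2b, Glra1 and Chrne. Among them, 6 belong to the 10 measured glutamate receptor probe sets, 1 to the 4 of GABA-A and glycine receptors and 1 to the 3 of nicotinic and serotonin receptors, with 0 of 2 for P2X. Glra1 was above threshold on 2 arrays only. Grin2b and Chrne passed through array 2 alone, so that they had to differ and to be highest there. Among the 16 receptor probe sets above threshold on all 3 arrays, 5 had a range over 2-fold, beside 6.84% of the 5456 such probe sets in the table. The count depended on array 2: without it, 1 of 17 measured receptor probe sets, that of Gria3, differed by over 2-fold, beside 3.46% of all. Without array 1 it was 5 of 20, beside 7.81%, and without array 3 also 5 of 20, beside 6.65%.

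Most measured receptor probe sets were high on array 2, low on array 3 or both, with no test of that pattern. Of the 19, 11 were highest on array 2, beside 33.2% of all measured probe sets, and 9 were lowest on array 3, beside 28.4%. Both held for 6 of the 19, beside 16.7% of all: the 2 of Gria1 and those of Grin2c, Chrna7, Chrne and Htr3a. Of these, Chrne was let in by array 2 alone, as was Grin2b among the 11. Among the 16 receptor probe sets above threshold on every array, 8 were highest on array 2, beside 32.2% of all such probe sets, and 8 were lowest on array 3, beside 27.1%. The median log2 deviation of an array from the mean of the others was 0.38 on array 2 and -0.34 on array 3 for the receptors, and -0.05 and 0.05 for all measured probe sets. With a signal above threshold asked of every array, it was 0.33 on array 2 and -0.38 on array 3 for the receptors, and -0.07 and 0.05 for all. On array 1 it was 0.02 for the receptors. With no threshold at all it was 0.15 on array 2 and -0.08 on array 3, and on array 2 it was 0.18 at the higher threshold. The negative deviation on array 3 turned to 0.11 without array 2, and was -0.48 without array 1. On array 2 the deviation was 0.48 without array 1 and 0.16 without array 3.

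**Figure D5:**
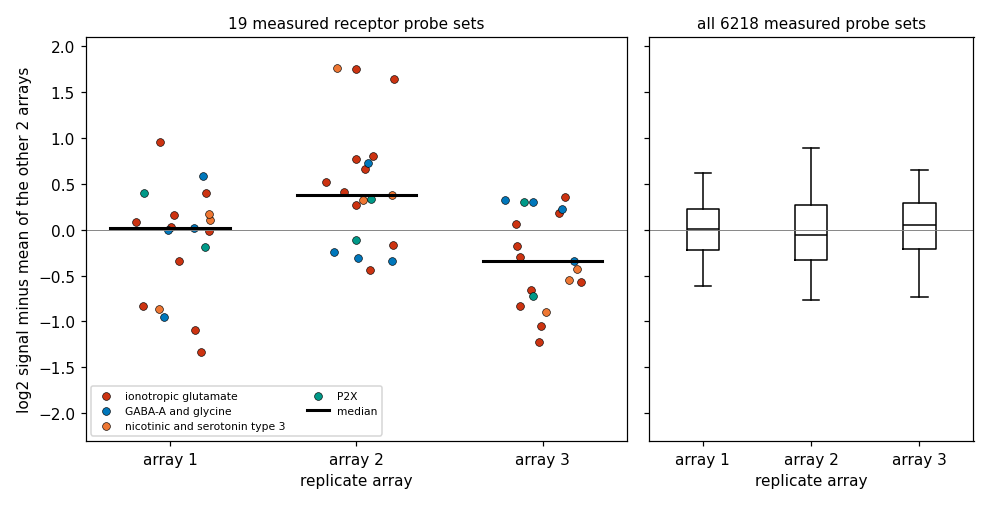
Log2 signal of each array minus the mean of the other 2, for the 19 measured receptor probe sets (left, points, with the median as a bar) and for all 6218 measured probe sets (right, boxes with quartiles, whiskers from the 5th to the 95th percentile). The receptor medians are 0.38 on array 2 and -0.34 on array 3, while those of all probe sets lie near 0.

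The same deviations were taken by receptor class. The 10 glutamate receptor probe sets had median deviations of 0.59 on array 2 and -0.44 on array 3, and 8 of 10 lay above the other arrays on array 2. Without Grin2b, which the threshold let in through array 2 alone, the 9 others had 0.52 and -0.57, and 7 of 9 lay above. The 4 GABA-A and glycine probe sets had -0.27 and 0.26, with Gabra2, Gabrb1 and Glrb all below the other arrays on array 2 and Glra1 above them. Chrna7 and Htr3a had their highest signal on array 2 and their lowest on array 3. Chrne showed the same order but had been let in by array 2, so it adds nothing to that description. Whether the classes differ was not tested, since probe sets of 1 array share that array.

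Other measurements also differed between the arrays. The signal ratio of the 3' to the 5' control probe set was 3.99, 1.21 and 3.94 for Gapdh and 2.57, 1.86 and 3.5 for Actb, lowest on array 2 for both. Choroid plexus and ependyma markers, 4 of 6 above threshold, summed to 3879, 7580.2 and 2360.1, with median deviations of 0.75 on array 2 and -0.74 on array 3. Without Ttr the sums were 2545, 3323.5 and 2266 and the medians 0.37 and -0.27. None was listed at 0, and Ttr was the 1 probe set that the limma variance test called, at 1333.5, 4257 and 94.2. The 4 measured CA3 and CA2 markers had a median deviation of 0.39 on array 2, out of 6 with a probe set, whose signals summed to 6281, 11453 and 7655. Without Nnat, at 1042, 4861.5 and 885, the median was 0.06 and the sums were 5239, 6591 and 6770.5, highest on array 3. Interneuron markers, 7 of 9 above threshold, had median deviations of -0.03 on array 2 and 0.24 on array 3 and summed to 32172, 34054 and 39307.5. Among them, Calb2 was lowest on array 3 at a deviation of -0.81. Oligodendrocyte markers, 4 of 5 above threshold, had 0.29 on array 2 and -0.14 on array 3. Excitatory neuron markers, 3 of 5 above threshold, had a median deviation of -0.31 on array 2 and summed to 3843, 3396 and 3952. Without Tbr1 the median was -0.06 and the sums were 2913, 2621 and 2345, lowest on array 3. Neurod2 lay above the other arrays on array 2, at a deviation of 0.19. The 3 CA1 pyramidal markers had a median deviation of -0.09 on array 2 and summed to 6587, 5554 and 5680.4, although Pou3f1 was highest there at a deviation of 0.48. The 5 microglial markers, all above threshold, had 0.48 on array 2 and summed to 3366, 4006 and 3945, although Csf1r was lowest on array 2 at a deviation of -0.55. Their part in the receptor values was not tested.

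As a set to compare with the receptors, genes with Kcn, Scn, Cacn or Hcn symbols had 36 measured probe sets. These symbols mark mainly voltage-gated channels, but the set was taken by symbol and not every gene in it need be one. It includes Cacng2, which is also counted among the glutamate receptor partners below. Of these, 9 had a range over 2-fold, or 25%, with a median log2 range of 0.63. Among the 36, 15 were highest on array 2 (41.7%), 14 were lowest on array 3 (38.9%) and both held for 9 (25%). The same shares were 57.9%, 47.4% and 31.6% for the receptor probe sets, and 33.2%, 28.4% and 16.7% for all. By these counts the genes of this symbol set leaned the same way as the receptors, to a lesser degree. Their median deviation was 0.04 on array 2 and -0.06 on array 3, against 0.38 and -0.34 for the receptors. These differences were not tested.

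Proteins that anchor or carry these receptors were counted by the same threshold, which 59.1% of all named genes passed. Of 14 glutamate receptor partner genes with a probe set 13 passed, of 9 GABA and glycine receptor partners 9, and of 4 nicotinic partners 3. Cacng2, the AMPA receptor auxiliary protein stargazin, gave 736, 728 and 799.8, and Cnih2, another AMPA auxiliary protein, gave 4428, 5872 and 4547.5. Gphn, the gephyrin scaffold that holds glycine and GABA-A receptors, gave 765.5, 742 and 865. Gabarap, which binds the gamma subunit of GABA-A receptors, gave 839, 3062 and 831, with array 2 apart from the other arrays. Rapsn, the clustering protein of the muscle nicotinic receptor, gave 323, 359 and 348, and Ly6h, a modulator of neuronal nicotinic receptors, gave 4421.5, 5907.5 and 7177. Of the 18 genes listed for transmitter supply and uptake, 9 had a probe set and 7 were above threshold. Slc32a1, the vesicular transporter of GABA and glycine, gave 3905, 2587 and 4391.5, lowest on array 2 as were Gabrb1 and Glrb. Slc6a9, a glycine transporter, gave 1172, 1570.4 and 1419.

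In these 4 lists 0 genes passed the limma variance test at an adjusted p under 0.05. At an unadjusted p under 0.05 there were 2 glutamate receptor partners, 1 GABA and glycine receptor partner, 0 nicotinic partners and 0 genes of supply and uptake, beside 5.21% of all measured probe sets. A range over 2-fold was found for 3 of 13, 1 of 9, 0 of 3 and 0 of 7 measured genes, beside 12.1% of all measured probe sets. The median deviation on array 2 was 0.07, -0.03, 0.04 and 0.26, against 0.38 for the receptor probe sets, and on array 3 it was 0.03, 0.18, 0.08 and -0.12, against -0.34.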

How the data were processed

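Total RNA of hippocampal CA1 was hybridised to 3 arrays, each with 12488 probe sets. The deposited table holds 1 signal intensity per probe set and array; the program, background correction and scaling that made it are not stated by the labels or the file header. Median signals were 176, 177 and 171 and the trimmed means agreed at 500.3, so the scale was common on deposit; centring does not apply to values that are all above 0. It held 0 columns of other samples, and array pairs shared 6 to 18 identical values. Pearson correlations of log2 signal were taken over the 6218 measured probe sets after the scaling and floor given below. They were 0.929 for arrays 1 and 2, 0.920 for arrays 2 and 3, and 0.955 for arrays 1 and 3. Probe sets were named through the platform annotation, with symbols brought up to date by Entrez number from the GRCm38.p6 gene table: 10833 had 1 gene, 396 several and were not named, 1193 none, and 66 were array controls. No symbol of a receptor gene changed.

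Arrays were scaled to a common median over measured probe sets (factors 0.991, 0.987 and 1.02), floored at 47.5, the 25th percentile, and log2-transformed. Variances were tested with limma 3.58.1 in R 4.3.3 (fitFDistRobustly, tails 0.05 and 0.1), Benjamini-Hochberg adjusted over all 6218 measured probe sets. The alternatives were other scalings, floors, thresholds, probe sets and priors, and leaving out each array. The number of arrays limits the precision.

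Named genes were every member, plus the first 2 above threshold of each partner list and any past the test, and of the marker lists those a result turns on. The members, lists and tests were chosen with earlier results of these data known. A planned comparison of protein sequences was not run.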

Additional observations from a re-analysis of the deposited data

How the results depend on the processing

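The count of 16 receptor genes above threshold was 31 at the 25th percentile and 7 at the 75th, and 14 to 17 leaving out each array. It stayed within 1.5-fold for plain-suffix probe sets, averaged probe sets and a threshold on every array. The variance test called 0 receptor probe sets in each setting but that without array 3, which called 1, Grik5 (range 0 to 1), and 44 in the whole table. The 8 ranges over 2-fold among 19 probe sets became 22 at the lower threshold, 3 at the higher and 22 of all 47 with none. They became 5 when every array had to pass, a rule chosen after seeing the data, and 1 to 5 leaving out each array. The median log2 range of 0.65 was 1.10 at the lower threshold and 0.40 to 0.52 leaving out each array. The 11 of 19 probe sets highest on array 2 became 17 and 5 when the threshold was lowered and raised, and 19 of all 47 with no threshold. The 9 of 19 lowest on array 3 became 15, 4 and 16, the last again of 47. In these cases more or fewer probe sets enter. Shares over all probe sets were not taken at these thresholds, so the counts cannot be read as a stronger or weaker lean. The median deviation on array 1, 0.02, was -0.0016 at the lower threshold and -0.16 to -0.11 leaving out array 3 or 2. That on array 2 was 0.16 to 0.48 and that on array 3 -0.48 to 0.11 leaving out each other array, turning positive without array 2. With no threshold these medians were 0.15 and -0.08, and at the higher threshold 0.18 and -0.31. The cause was not tested. Scaling and floor turned none of these results. Of 217 values of single probe sets under alternatives, 1 changed its side of the threshold, Grik5 without array 3. With 1 group of 3 arrays, no group held enough samples for the check of outlying samples. No paired analysis was possible because there is 1 group.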
